A study of Homo sapiens with 6 samples.

Results

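The transcripts described here encode mitotic cyclins and regulators of the anaphase-promoting complex (APC/C), the ubiquitin ligase that ends mitosis. The 10 genes are the cyclins CCNA2, CCNB1 and CCNB2, the phosphatases CDC25B and CDC25C, the APC/C activators CDC20 and FZR1, the ubiquitin-conjugating enzyme UBE2C, the securin PTTG1 and the separase ESPL1. Every probe annotated to one of them was taken if its detection p was under 0.01 on at least 2 of the 6 arrays. All 15 probes of these genes on the array passed, of 18106 that passed in all, and they stand for 10 of 10877 measured named genes. The detection filter therefore removed no member, and 14 of the 15 probes were detected on all 6 arrays. Of the genes, 6 had a single probe, and FZR1, UBE2C, PTTG1 and CDC25C had several.

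Total RNA came from MDA-MB-231, a long-established human breast cancer line of the triple-negative type, and was measured on Illumina BeadChips with 2 arrays in each of 3 groups. Control cells were mock-transfected, the second group stably over-expressed a tRNA-Glu gene (chr1.trna5, anticodon TTC), and the third stably over-expressed a tRNA-Arg gene (chr16.trna1, anticodon CCG). The comparisons ask how the abundance of these mRNAs differs between each over-expressing line and control, and between the lines. The labels do not say whether the 2 arrays of a group hold separate cultures, or whether a line is a clone or a pool of transfected cells. The p-values thus cover only array-to-array spread, which could be technical.

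Cyclins A and B activate the kinase CDK1, which drives entry into mitosis once CDC25 phosphatases have removed its inhibitory phosphates. The APC/C, first with CDC20 and later with FZR1 (also called CDH1), then marks cyclins and securin for destruction, with UBE2C supplying ubiquitin, and the freed separase cuts the cohesin that holds sister chromatids together. Many of these genes are transcribed mainly in G2 and M phase, and their promoters are known for CCAAT boxes, bound by NF-Y, and for the CHR (cell cycle genes homology region), bound by MuvB complexes such as DREAM.

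Promoter sequence is shown for CCNB1, CCNB2, CDC20 and CDC25C, which had the highest differences from control among the genes with a window, and for FZR1, which was called higher in 1 line only. The sequences are from RefSeq (GRCh38.p14) and cover the 250 bases before an annotated start site, read 5′ to 3′ on the strand of the gene. Capitals mark the CCAAT box, the CHR (TTTGAA) and a CHR variant (TTTAAA), each searched on both strands, so that ATTGG and TTCAAA are reverse matches. The CCNB1 window is chr5:69166900-69167149 (+), the CCNB2 window chr15:59104896-59105145 (+) and the CDC20 window chr1:43358731-43358980 (+). The CDC25C window is chr5:138331805-138332054 (-), and the FZR1 window is chr19:3506061-3506310 (+).
CCNB1: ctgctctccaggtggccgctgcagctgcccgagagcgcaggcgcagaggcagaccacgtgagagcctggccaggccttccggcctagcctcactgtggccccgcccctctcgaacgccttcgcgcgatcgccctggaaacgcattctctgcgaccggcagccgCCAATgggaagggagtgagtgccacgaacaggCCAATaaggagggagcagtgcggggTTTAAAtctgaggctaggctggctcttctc
CCNB2: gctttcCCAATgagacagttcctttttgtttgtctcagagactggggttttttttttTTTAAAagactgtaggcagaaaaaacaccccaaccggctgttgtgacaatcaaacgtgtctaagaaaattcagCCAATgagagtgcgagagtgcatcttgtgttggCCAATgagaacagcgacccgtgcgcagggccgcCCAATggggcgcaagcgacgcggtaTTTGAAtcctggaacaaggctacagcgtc
CDC20: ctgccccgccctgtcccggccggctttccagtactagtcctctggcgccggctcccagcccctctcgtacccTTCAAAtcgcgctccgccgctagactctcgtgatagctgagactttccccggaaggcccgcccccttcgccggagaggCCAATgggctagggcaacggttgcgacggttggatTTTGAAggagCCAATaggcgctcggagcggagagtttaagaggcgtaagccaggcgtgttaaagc
CDC25C: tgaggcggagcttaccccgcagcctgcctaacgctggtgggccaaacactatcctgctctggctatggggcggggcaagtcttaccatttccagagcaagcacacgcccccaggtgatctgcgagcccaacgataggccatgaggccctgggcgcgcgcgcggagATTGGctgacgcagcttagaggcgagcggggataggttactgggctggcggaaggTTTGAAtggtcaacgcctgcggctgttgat
FZR1: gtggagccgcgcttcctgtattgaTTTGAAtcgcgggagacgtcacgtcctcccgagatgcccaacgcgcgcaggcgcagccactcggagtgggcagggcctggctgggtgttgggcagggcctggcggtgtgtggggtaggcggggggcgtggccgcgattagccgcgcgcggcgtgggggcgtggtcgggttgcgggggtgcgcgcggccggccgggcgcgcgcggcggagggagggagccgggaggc

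In CCNB1 the CCAAT boxes began 87 and 55 bases before the start site, and the TTTAAA variant 30 bases before it. CCNB2 held 4 CCAAT boxes, a CHR at 29 bases and a TTTAAA variant at 193 bases. In CDC20 a CHR at 65 bases lay between CCAAT boxes at 100 and 55 bases, and a reverse CHR lay at 178 bases. CDC25C had a reverse CCAAT box at 85 bases and a CHR at 30 bases. The FZR1 window had no CCAAT box, and its CHR lay 226 bases from the start. The search itself used windows of 250 bases before to 50 after the start, and 9 of the 10 genes had at least 1 such window (17 in all). No window of UBE2C was used. A CCAAT box was found in 8 of the 9 genes, all but FZR1, against 39.7% of 27305 genes with windows. TTTGAA or TTTAAA was found in 8 of the 9, all but CCNA2, against 27.9% of genes. In CDC25B the only such match lay 33 bases after the start, in a window without a CCAAT box. Other spellings of the CHR were not searched, so their absence from CCNA2 is not shown. Genes with more windows have more chances of a match, and CDC25B and CDC25C had 4 windows each. In PTTG1 a forward and a reverse CCAAT box overlapped. A match of these letters is a description of the sequence and not evidence of binding.

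**Figure D1:**
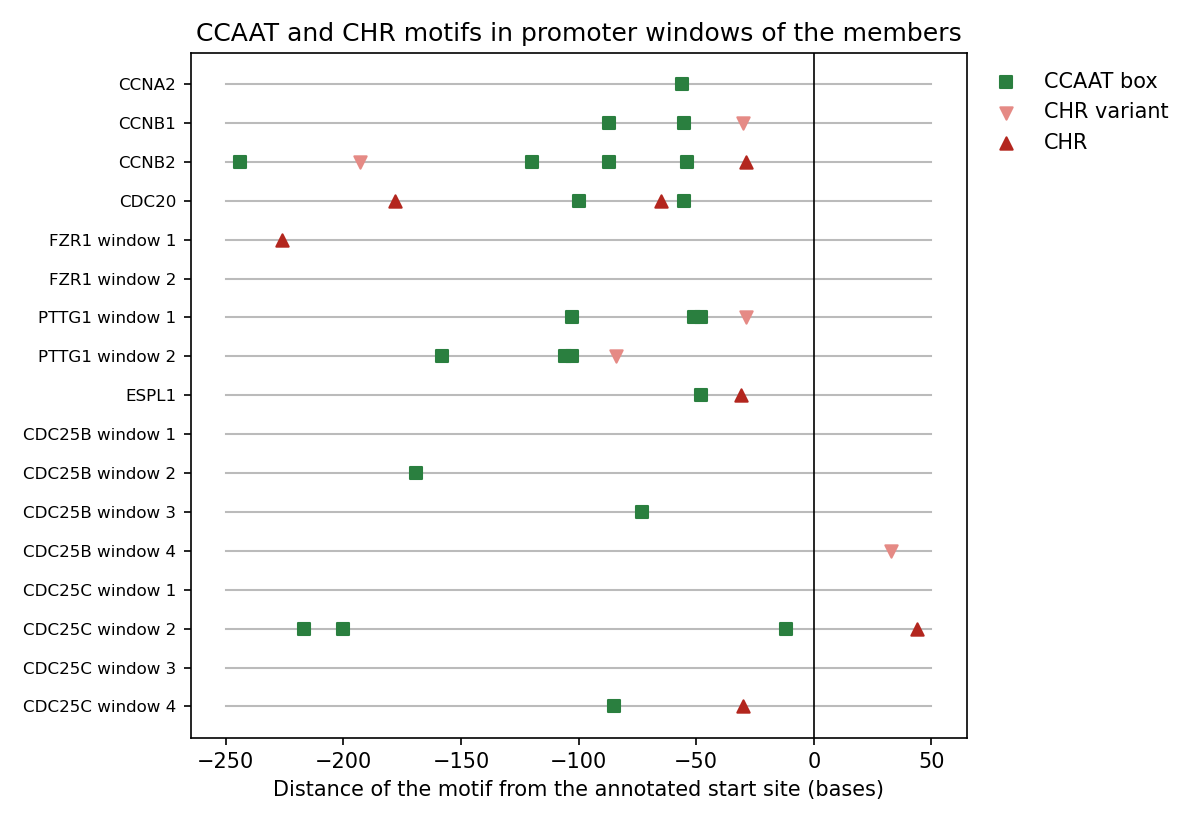
Positions of CCAAT boxes (squares), CHR motifs (upward triangles) and CHR variants (downward triangles) in the 17 promoter windows of 9 genes. The horizontal axis is the distance in bases from the annotated start site, marked by the vertical line. CCNB1, CCNB2, CDC20, ESPL1, window 1 of PTTG1 and window 4 of CDC25C each carry a CHR-type match between 29 and 65 bases before the start, with CCAAT boxes at or beyond 48 bases.

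The ranges of array intensity and of probe detection overlapped between groups. Mean non-normalized intensity per array lay between 250.6 and 331.3, and 16650 to 17704 probes were detected at p under 0.01. Arrays of the same group correlated with r of 0.9958 to 0.9962 across the 18106 probes. Control arrays correlated with arrays of the lines at r of 0.961 to 0.975, and tRNA-Arg with tRNA-Glu arrays at 0.982 to 0.985. Probes are not independent replicates, so these values describe the arrays only. All 8 genes fixed as markers of MDA-MB-231 were detected on every array. Probes of ESR1, PGR and CDH1 (E-cadherin), genes low or absent in this line, were detected on none. EPCAM and 1 of 3 ERBB2 probes were detected on all 6 arrays, although both genes were listed as low or absent. Of the 4 kept probes of these genes, 1 was called higher than control in tRNA-Glu and 2 in tRNA-Arg, all of EPCAM, and 0 lower. GATA3, on the same list, was detected on 1 array.

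Markers of other cell types moved with the groups, and so did markers of MDA-MB-231. Of 13 probes of the 8 MDA-MB-231 markers, 3 were higher and 5 lower than control in tRNA-Glu. In tRNA-Arg 3 were higher and 1 lower. Over all probes, 26.7% were higher and 27.0% lower in tRNA-Glu, and 19.2% and 20.4% in tRNA-Arg. Of 6 blood cell genes, PTPRC and CD3E were detected on no array, and the 5 kept probes of the other 4 (CD14, CD68, CSF1R, LAPTM5) summed to a normalized intensity of 2511 to 2690.2 in control, 3690.1 to 3712 in tRNA-Arg and 5342 to 5492 in tRNA-Glu. Of these 5 probes, 4 were higher and 0 lower in tRNA-Glu, and 3 were higher and 1 lower in tRNA-Arg. The CD68 probes were the brightest of the 5 and weighed most in the sum. They measured 1294 and 868 on control replicate 1, 2107 and 939 on tRNA-Arg replicate 1, and 2727 and 1520 on tRNA-Glu replicate 1. Of 6 fibroblast genes, COL1A1 alone was kept, at 85.5 to 94.3 in control, 117 to 118 in tRNA-Arg and 196 to 210.1 in tRNA-Glu. Their part in the results on the cyclins and APC/C regulators was not tested.

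Across the 15 probes, 13 were called higher and 0 lower than control in the tRNA-Glu line, at a limma adjusted p under 0.05. Of all 18106 probes, 26.7% were called higher and 27.0% lower in that comparison. In the tRNA-Arg line 13 were called higher and 0 lower as well, beside 19.2% and 20.4% of all probes. Differences of at least 2-fold were less common overall: 10 of the 15 probes in tRNA-Glu and 12 in tRNA-Arg were called at least 2-fold higher, against 3.40% and 2.49% of all probes. The median log2 difference of the 15 probes was 1.49 in tRNA-Glu and 1.18 in tRNA-Arg, and that of all probes was 0.01 and -0.01. Both arrays of the line lay above both control arrays for 14 probes in tRNA-Glu and 13 in tRNA-Arg, against 39.0% and 34.5% of all probes. Both lines were compared with the same 2 control arrays, so the 2 comparisons are not independent. Control was mock-transfected, whereas both lines were stable. For a difference shared by both lines, tRNA over-expression, this difference in handling and a trait of the control cells cannot be told apart. In bulk RNA, a larger share of cells in mitosis and more of an mRNA per cell cannot be told apart.

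**Figure D2:**
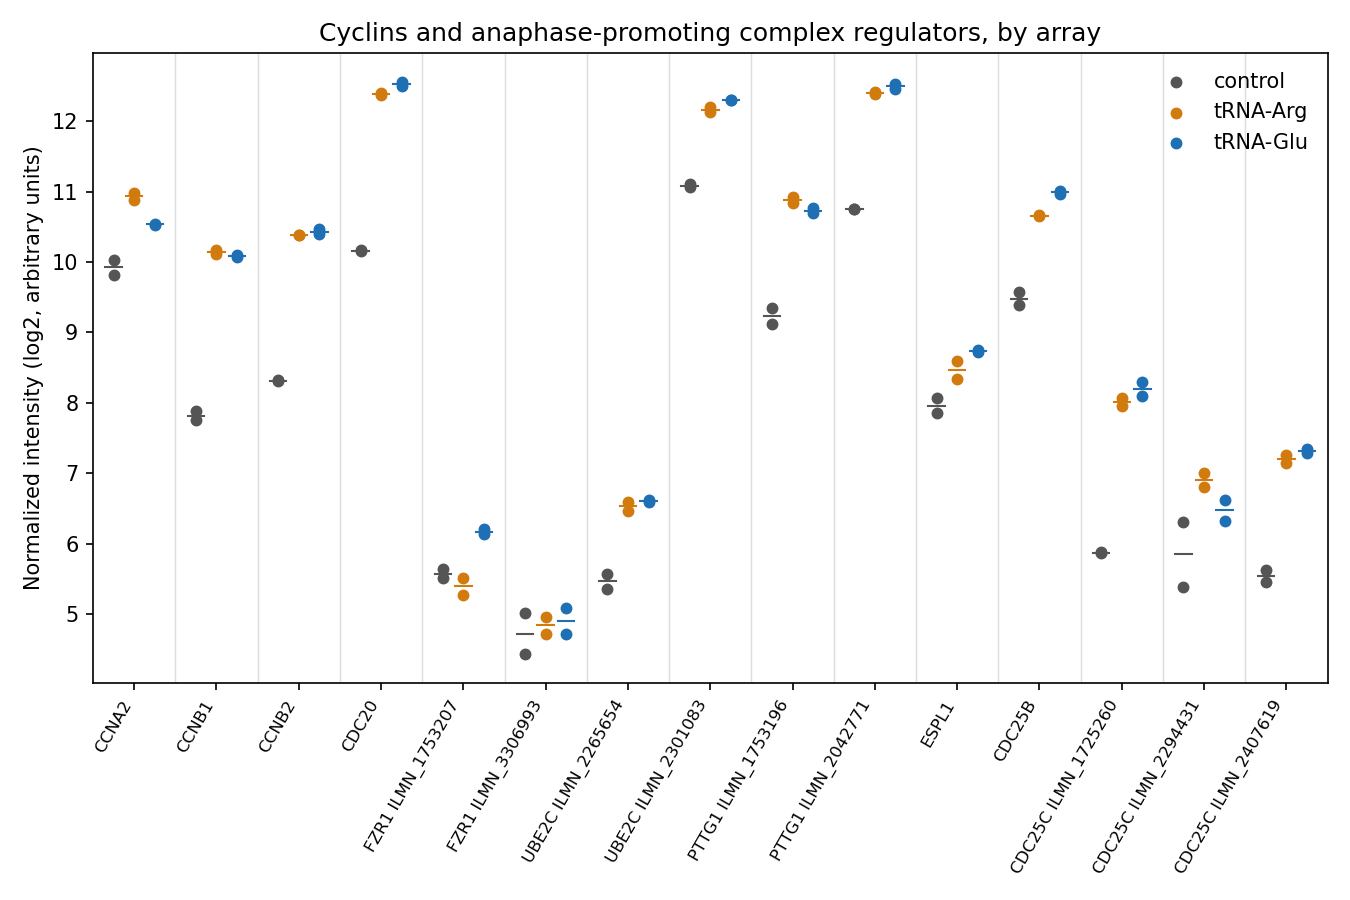
Normalized intensity (log2, arbitrary units) of the 15 probes on each array. Points are single arrays and short bars are means of the 2 arrays of control, tRNA-Arg and tRNA-Glu. For CCNB1, CCNB2 and CDC20 all 4 arrays of the lines lie more than 4-fold above both control arrays, while the arrays of FZR1 probe ILMN_3306993 overlap in all groups.

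The B-type cyclins CCNB1 and CCNB2, partners of CDK1 in mitosis, were more than 4-fold higher in both lines than in control. CCNB1 had a normalized intensity of 235 and 216 on the control arrays, 1112 and 1152 on the tRNA-Arg arrays, and 1096 and 1077 on the tRNA-Glu arrays. Every array of a line was far above both control arrays, and the lines lay close together. CCNB1 was 5.02-fold higher than control in tRNA-Arg (log2 difference 2.33 ± 0.09 SE over 2 arrays a group, limma adjusted p = 1.48e-05) and 4.82-fold higher in tRNA-Glu (2.27 ± 0.09, limma adjusted p = 1.55e-05). The sign of this and every other difference comes from the array labels, and the fold changes in the authors' deposited table run the opposite way, as described further on. CCNB2 measured 318 and 319 in control, 1341 and 1336 in tRNA-Arg, and 1417 and 1349 in tRNA-Glu. The control arrays were almost equal, and none of the other 4 arrays came near them. Its fold was 4.20 in tRNA-Arg (log2 difference 2.07 ± 0.08 SE, limma adjusted p = 1.80e-05) and 4.34 in tRNA-Glu (2.12 ± 0.08, limma adjusted p = 1.55e-05).

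Cyclin A2, which pairs with CDK2 in S phase and with CDK1 in G2, was higher in both lines than in control. CCNA2 measured 901 and 1045 in control, 2024 and 1886 in tRNA-Arg, and 1481 and 1489.7 in tRNA-Glu. The 3 groups did not overlap, and tRNA-Glu lay between the others. CCNA2 was 2.01-fold higher than control in tRNA-Arg (log2 difference 1.01 ± 0.10 SE, limma adjusted p = 0.000501) and 1.53-fold higher in tRNA-Glu (0.61 ± 0.10, limma adjusted p = 0.00201).

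The CDC25 phosphatases, which activate CDK1, were higher in both lines on most probes. CDC25B measured 671 and 760.03 in control, 1626 and 1605 in tRNA-Arg, and 2069 and 1994 in tRNA-Glu. The groups did not overlap, and the order was control, tRNA-Arg, tRNA-Glu. The fold over control was 2.26 in tRNA-Arg (log2 difference 1.18 ± 0.09 SE, limma adjusted p = 0.000211) and 2.85 in tRNA-Glu (1.51 ± 0.09, limma adjusted p = 5.41e-05).

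CDC25C, the family member best known for driving entry into mitosis, had 3 probes whose differences from control varied in size. Probe ILMN_1725260 measured 58.9 and 58.01 in control, 247 and 268 in tRNA-Arg, and 275 and 315 in tRNA-Glu, which is 4.40-fold and 5.03-fold above control (log2 differences 2.14 ± 0.10 and 2.33 ± 0.10 SE, limma adjusted p = 3.29e-05 and 2.30e-05). Probe ILMN_2407619 measured 43.6 and 49.3 in control, 153 and 141 in tRNA-Arg, and 163 and 156 in tRNA-Glu, for folds of 3.17 and 3.44. On both probes all arrays of the lines stood apart from control. Probe ILMN_2294431 measured 41.8 and 79.1 in control, 112 and 129 in tRNA-Arg, and 79.5 and 98.7 in tRNA-Glu. Its control arrays were 0.92 apart on the log2 scale, the widest gap of any member probe, and the higher of them almost met the lower tRNA-Glu array. That probe was 2.08-fold higher in tRNA-Arg (log2 difference 1.06 ± 0.27 SE, limma adjusted p = 0.0206), a call lost without either tRNA-Arg array (1.16 and 0.96, adjusted p = 0.0622 and 0.0996) and without the detection filter (1.06, adjusted p = 0.0667). In tRNA-Glu its log2 difference was 0.62 ± 0.27 SE (limma adjusted p = 0.0940). The difference was 1.08 without control replicate 2 and 0.16 without control replicate 1, so its size depended on which control array was kept.

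CDC20, the activator that turns on the APC/C at the metaphase to anaphase transition, was among the probes with the highest differences from control in both lines. It measured 1145 and 1148 in control, 5313 and 5393 in tRNA-Arg, and 5791 and 6051 in tRNA-Glu. The lines lay clear of control on every array. The fold over control was 4.67 in tRNA-Arg (log2 difference 2.22 ± 0.08 SE, limma adjusted p = 1.42e-05) and 5.16 in tRNA-Glu (2.37 ± 0.08, limma adjusted p = 1.03e-05). Ranked by log2 difference from the highest down, CDC20 stood 30th of 18106 probes in tRNA-Glu and 33rd in tRNA-Arg. CCNB1 stood 38th and 24th.

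FZR1, the activator that keeps the APC/C on from late mitosis through G1, was higher than control in tRNA-Glu on 1 of its 2 probes and on neither in tRNA-Arg. Its probe ILMN_1753207 measured 45.4 and 49.8 in control, 38.6 and 45.7 in tRNA-Arg, and 70.4 and 73.6 in tRNA-Glu. The tRNA-Arg and control arrays overlapped, and the tRNA-Glu arrays stood above both. The probe was 1.51-fold higher than control in tRNA-Glu (log2 difference 0.60 ± 0.11 SE, limma adjusted p = 0.00325). In tRNA-Arg the log2 difference was -0.18 (95% interval -0.43 to 0.08, limma adjusted p = 0.227). A further FZR1 probe, ILMN_3306993, was detected on only 2 arrays and measured 21.5 and 32.2 in control, 26.3 and 31.1 in tRNA-Arg, and 33.9 and 26.3 in tRNA-Glu. Its values lay near the background and overlapped in all groups, and it was not called in any comparison (limma adjusted p between 0.486 and 0.838).

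UBE2C, the enzyme that starts ubiquitin chains on APC/C substrates, was about 2-fold higher in both lines. Its brighter probe measured 2203 and 2139.7 in control, 4705 and 4492 in tRNA-Arg, and 5056 and 5032 in tRNA-Glu. Its dimmer probe measured 47.3 and 41.0 in control, 88.2 and 96.7 in tRNA-Arg, and 96.0 and 98.1 in tRNA-Glu. The control arrays were lowest on both probes, and the probes gave like differences. The folds over control were 2.12 and 2.10 in tRNA-Arg (log2 differences 1.08 ± 0.08 and 1.07 ± 0.10 SE, limma adjusted p = 0.000173 and 0.000426). In tRNA-Glu they were 2.32 and 2.20 (1.22 ± 0.08 and 1.14 ± 0.10, limma adjusted p = 6.76e-05 and 0.000184).

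PTTG1 encodes securin, the APC/C substrate that holds separase inactive, and was about 3-fold higher in both lines. Probe ILMN_2042771 measured 1721 and 1720.25 in control, 5372 and 5489 in tRNA-Arg, and 5653 and 5887 in tRNA-Glu. Probe ILMN_1753196 measured 652 and 555 in control, 1825 and 1934.5 in tRNA-Arg, and 1656.5 and 1735 in tRNA-Glu. Both probes separated the lines from control, but the line with the higher level differed between them. The folds over control were 3.16 and 3.12 in tRNA-Arg (log2 differences 1.66 ± 0.08 and 1.64 ± 0.10 SE, limma adjusted p = 3.46e-05 and 9.40e-05), and 3.35 and 2.82 in tRNA-Glu (1.75 ± 0.08 and 1.49 ± 0.10, limma adjusted p = 2.78e-05 and 7.66e-05). The genome holds near-identical copies of PTTG1, so its probes may also bind RNA of those copies.

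ESPL1 encodes separase, the protease that cuts cohesin, and was higher in both lines. It measured 268 and 231 in control, 323 and 387 in tRNA-Arg, and 429 and 423 in tRNA-Glu. The groups did not overlap, with tRNA-Glu highest. ESPL1 was 1.71-fold higher than control in tRNA-Glu (log2 difference 0.78 ± 0.12 SE, limma adjusted p = 0.00154) and 1.42-fold higher in tRNA-Arg (0.51 ± 0.12, limma adjusted p = 0.0138). The tRNA-Arg call was lost without control replicate 2 (log2 difference 0.40, adjusted p = 0.0747) and without tRNA-Arg replicate 2 (0.38, adjusted p = 0.0751).

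**Figure D3:**
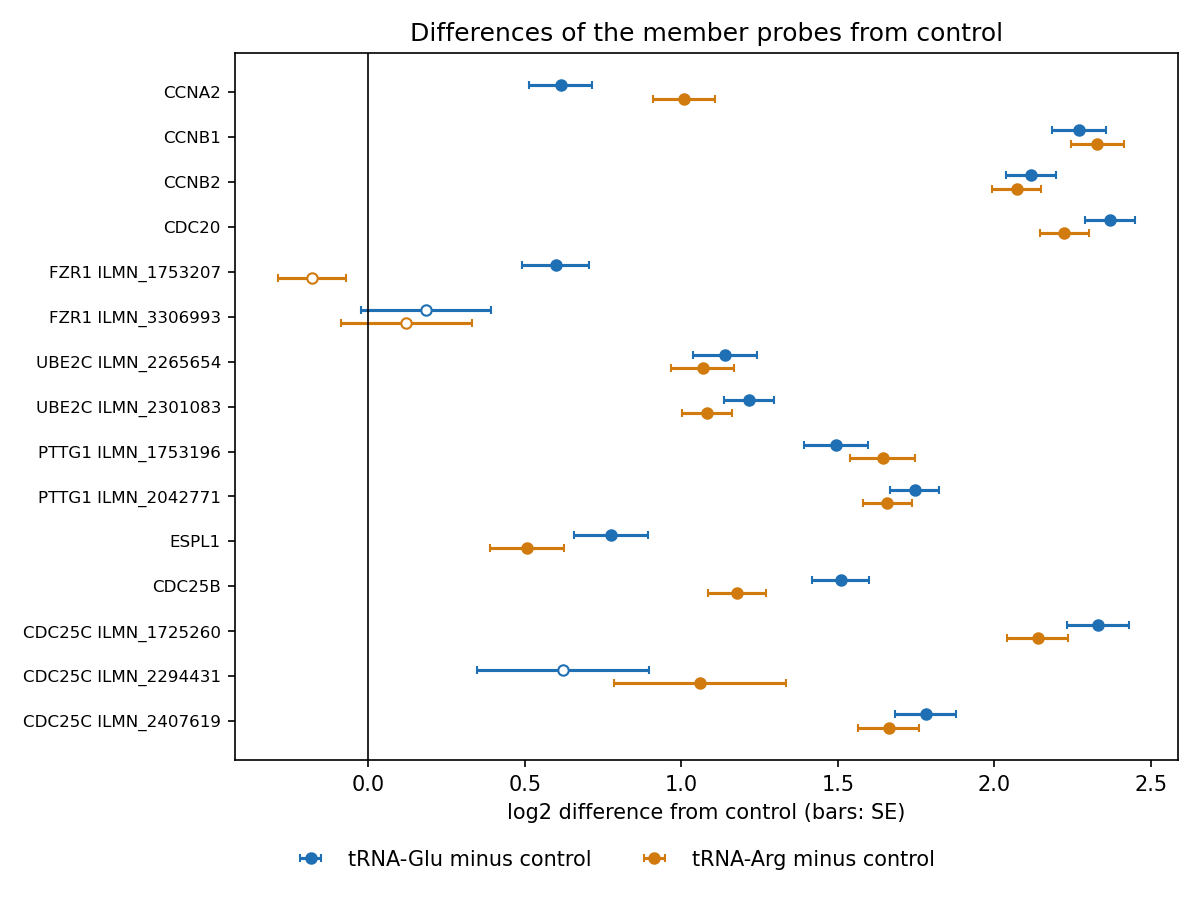
Log2 difference of each of the 15 probes from control, with the SE as bars, for tRNA-Glu (blue) and tRNA-Arg (orange). Filled points passed an adjusted p under 0.05 and open points did not. CCNB1, CCNB2, CDC20 and CDC25C probe ILMN_1725260 lie above 2 in both lines, and the open points belong to both FZR1 probes and to CDC25C probe ILMN_2294431.

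Between the lines, tRNA-Glu was higher than tRNA-Arg on 2 of the 15 probes and lower on 1, and 12 were not called. Of all 18106 probes, 18.0% were called higher and 17.8% lower in that comparison. FZR1 probe ILMN_1753207 was 1.71-fold higher in tRNA-Glu (log2 difference 0.78 ± 0.11 SE, 95% interval 0.52 to 1.03, limma adjusted p = 0.00345). CDC25B was 1.26-fold higher in tRNA-Glu (0.33 ± 0.09, interval 0.11 to 0.55, limma adjusted p = 0.0303). CCNA2 was 1.32-fold lower in tRNA-Glu (log2 difference -0.40 ± 0.10, interval -0.63 to -0.16, limma adjusted p = 0.0218). The CCNA2 and CDC25B calls were lost when any 1 of the 4 arrays of the lines was left out, with adjusted p of 0.0581 to 0.106 and 0.0880 to 0.115. The CDC25B call was also lost without the detection filter (adjusted p = 0.0558). The FZR1 call was lost under none of these.

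The probes not called leave these ranges for a difference between the lines. The 95% interval of tRNA-Glu minus tRNA-Arg was -0.26 to 0.14 for CCNB1, -0.14 to 0.23 for CCNB2 and -0.04 to 0.33 for CDC20, on the log2 scale. For the brighter UBE2C probe it was -0.05 to 0.32, and for PTTG1 probe ILMN_2042771 it was -0.10 to 0.27. ESPL1 had an interval of -0.01 to 0.55 and a limma adjusted p of 0.118. These intervals include 0 and do not show that the lines are alike. Arrays of the same group differed by a median of 0.18 across the 15 probes in control, 0.10 in tRNA-Arg and 0.06 in tRNA-Glu, on the log2 scale. Over all probes the medians were 0.11, 0.10 and 0.10.

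Genes around the same pathway were called in both directions, and so were the subunits of the APC/C. Calls both ways were also common over all probes: 26.7% higher and 27.0% lower in tRNA-Glu, and 19.2% and 20.4% in tRNA-Arg. The counts of this list and of those that follow stand beside these shares, and a difference from them was not tested. Of 18 probes of 13 APC/C subunit genes, 4 were higher and 4 lower than control in tRNA-Glu, with a median log2 difference of -0.09, and 2 were higher and 4 lower in tRNA-Arg, with a median of -0.17. ANAPC15 was higher in both lines (log2 differences 1.06 and 0.85 in tRNA-Glu and tRNA-Arg, limma adjusted p = 0.000243 and 0.00110). ANAPC16 was lower in both (-0.87 and -1.01), as was ANAPC13 (-0.41 and -0.61). ANAPC7, a scaffold subunit, was lower in tRNA-Glu (-0.69, limma adjusted p = 0.00398) and had a difference of -0.14 in tRNA-Arg (adjusted p = 0.428). Without tRNA-Arg replicate 2, 3 subunit probes were called in tRNA-Arg in place of 6.

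A further list held other APC/C ubiquitin-conjugating enzymes, APC/C inhibitors and checkpoint factors. Its enzymes, UBE2S and UBE2D1, were not measured, so the counts describe inhibitors and checkpoint factors only. Of 14 probes of the 8 measured genes, 3 were higher and 4 lower in tRNA-Glu, and 5 were higher and 0 lower in tRNA-Arg. The medians were 0.15 and 0.21. The tRNA-Arg count fell from 5 to 2 without either tRNA-Arg array, and to 3 without control replicate 1 or either tRNA-Glu array. BUB1B, a kinase-like part of the mitotic checkpoint complex that restrains CDC20, was higher in both lines (log2 differences 0.70 and 0.91). MAD1L1, which recruits MAD2 to kinetochores, was higher in tRNA-Glu (0.99) and had a difference of 0.21 in tRNA-Arg (limma adjusted p = 0.0852). FBXO5, the interphase APC/C inhibitor EMI1, was lower in tRNA-Glu on its brighter probe (-0.71, limma adjusted p = 0.000563), while that probe had a difference of -0.02 in tRNA-Arg (adjusted p = 0.843). Its dimmer probe was not called in either line (-0.06 and 0.21, adjusted p = 0.618 and 0.109). MAD2L1BP, which helps to silence the checkpoint, had probes that disagreed. Its brighter probe was higher in both lines (0.28 and 0.38), and its dimmer probe was lower in tRNA-Glu (-0.56, limma adjusted p = 0.00177) and differed by -0.03 in tRNA-Arg (adjusted p = 0.797).

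The other cyclins gave no common direction, with 8 of 28 probes higher and 11 lower in tRNA-Glu (median log2 difference -0.21) and 7 higher and 6 lower in tRNA-Arg (median -0.09). CCNF, a cyclin F-box protein active in G2, was 5.004-fold higher in tRNA-Glu and 3.63-fold higher in tRNA-Arg (limma adjusted p = 4.00e-05 and 0.000123). CCNA1, the second A-type cyclin, was not above background on the control arrays, so its folds are lower bounds: at least 4.27-fold higher in tRNA-Arg and at least 2.90-fold higher in tRNA-Glu (limma adjusted p = 4.59e-05 and 7.32e-05). A bound sets the mean of the line against the lowest signal above background on each control array, or the probe's own signal where higher. CCNG1 was higher in both lines (log2 differences 0.48 and 0.84). CCNB3, the remaining B-type cyclin, named after its values were seen, was detected on 3 arrays and was not called (log2 differences -0.22 and -0.13, limma adjusted p = 0.299 and 0.557). CCNT2, a cyclin of transcription elongation, was lower in tRNA-Glu (-1.26) and had a difference of -0.10 in tRNA-Arg (adjusted p = 0.529). The 13 calls in tRNA-Arg fell to 6 without its replicate 1 and to 7 without its replicate 2.

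Among CDK1 and its regulators, 9 of 26 probes were higher and 8 lower in tRNA-Glu, and 9 higher and 3 lower in tRNA-Arg, with medians of 0.08 and 0.06. PLK1, a kinase that promotes CDK1 activation, was 7.88-fold and 6.92-fold higher in tRNA-Glu and tRNA-Arg. BORA, a cofactor in activating PLK1, was 3.31-fold and 4.49-fold higher. CDKN3, a phosphatase of cyclin-dependent kinases, and GTSE1, a microtubule-associated protein of G2 and M, were also higher in both lines (log2 differences of 1.47 and 1.76 for CDKN3, and of 1.74 and 1.61 for GTSE1). WEE1, the kinase that opposes CDC25 on CDK1, was lower in both (-1.21 and -0.51, limma adjusted p = 7.58e-05 and 0.00341). ARPP19, an inhibitor of the phosphatase that removes phosphates placed by CDK1 on its substrates, was also lower in both (-0.47 and -0.29). CDK1 itself, named here after its values were seen because it is the partner of these cyclins, was not called higher in either line. Its 2 probes were lower in tRNA-Glu (-0.50 and -0.66, limma adjusted p = 0.00370 and 0.00116) and each had a difference of -0.08 in tRNA-Arg (adjusted p = 0.529 and 0.508).

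Other known APC/C substrates were mostly higher, with 22 of 34 probes higher and 3 lower in tRNA-Glu and 27 higher and 2 lower in tRNA-Arg. The medians were 0.59 and 0.82, beside 0.01 and -0.01 over all probes. KIF20A, a kinesin of cytokinesis, was 6.78-fold and 7.31-fold higher in tRNA-Glu and tRNA-Arg, and the kinase AURKA was 6.28-fold and 6.40-fold higher (limma adjusted p of 1.03e-05 in tRNA-Glu and 1.42e-05 in tRNA-Arg for both). BIRC5, survivin, was 3.12-fold and 2.18-fold higher. RRM2, a subunit of ribonucleotide reductase, and CDC6, which licenses replication origins, were lower in both lines (log2 differences of -1.57 and -0.50 for RRM2, and of -0.38 and -0.48 for CDC6).

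Of 19 probes of cohesin, which separase cuts, and its protectors, 4 were higher and 10 lower in tRNA-Glu (median log2 difference -0.33), where 27.0% of all probes were lower. With 1 probe per gene, 2 of 13 were higher and 6 lower. In tRNA-Arg 4 of the 19 were higher and 6 lower (median -0.22). WAPL, which releases cohesin, was lower in both lines (-1.64 and -0.80), as were the cohesin subunits SMC3 (-1.25 and -0.72) and STAG2 (-1.06 and -0.35). The shugoshins SGO2 (0.70 and 1.11) and SGO1 (0.62 and 0.84), which protect centromeric cohesin, were higher in both. RAD21, the subunit that separase cleaves, named after its values were seen, had probes that disagreed: 1 was lower in tRNA-Glu (-0.33) and not called in tRNA-Arg (-0.02, limma adjusted p = 0.905), and the other was higher in both (0.43 and 0.68).

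The list of DREAM, MuvB and FOXM1 regulators also holds RB and E2F family genes, and not all of its genes are specific to G2 and M promoters. Of its 23 probes, 4 were higher and 9 lower in tRNA-Glu, and 6 were higher and 6 lower in tRNA-Arg. The medians were -0.21 and -0.01. Without tRNA-Arg replicate 2, 3 were higher and 4 lower in tRNA-Arg. FOXM1, an activator of G2 and M promoters, was 2.90-fold and 2.29-fold higher in tRNA-Glu and tRNA-Arg. The retinoblastoma gene RB1 was lower in both (log2 differences -1.62 and -0.38), as were its relative RBL2 (-1.13 and -0.60) and E2F2 (-0.49 and -1.20). Of the 3 NF-Y subunits, NFYA was lower (-0.95) and NFYC higher (0.35) in tRNA-Glu, and NFYB was not called. In tRNA-Arg the 3 had limma adjusted p of 0.221 to 0.745. NF-Y calls in tRNA-Glu fell from 2 probes to 1 without control replicate 2 or without tRNA-Glu replicate 1, and 1 probe was called in tRNA-Arg without control replicate 1.

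**Figure D4:**
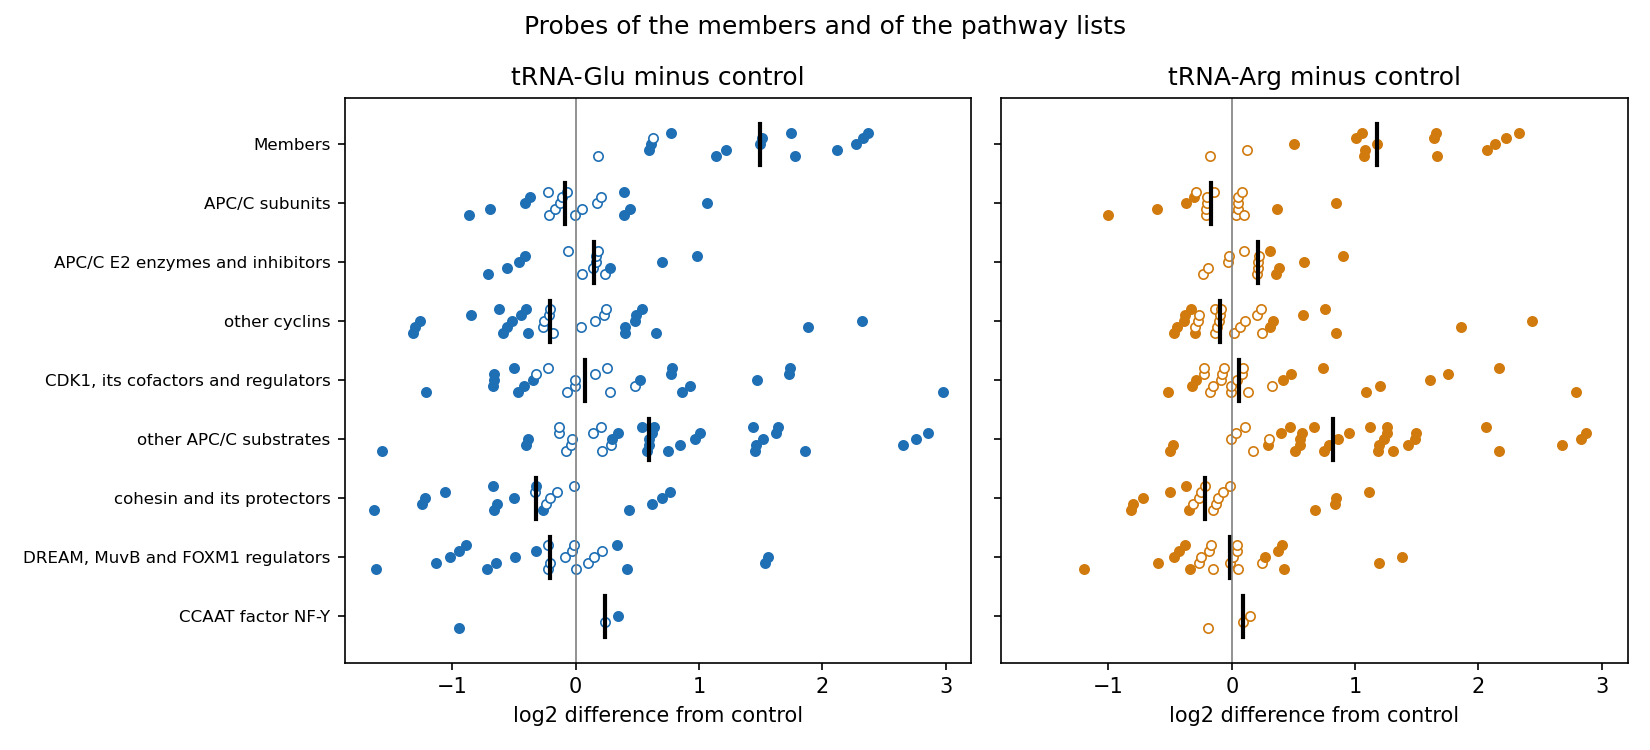
Log2 difference from control of every probe of the 10 genes (top row) and of 8 pathway lists, in tRNA-Glu (left) and tRNA-Arg (right). Each point is a probe, filled where called, points are spread vertically only for legibility, and black bars are medians. The top row has medians of 1.49 and 1.18, other APC/C substrates 0.59 and 0.82, and APC/C subunits -0.09 and -0.17.

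The probes with profiles most like CCNB1 over the 6 arrays, by the root mean square difference of mean-centred log2 values, came from NMU, CENPA, CENPE, IL11, MAMDC2 and DLGAP5, at 0.03 to 0.13. Those most like CDC20 came from KIF2C, PIF1, SPANXA1, ADAP1, NMU and DLGAP5, at 0.07 to 0.13. The search covered 14322 probes of genes other than the 10. NMU, which encodes the neuropeptide neuromedin U, was nearest to CCNB1, with log2 differences from control of 2.22 in tRNA-Glu and 2.29 in tRNA-Arg. CENPA and CENPE, centromere proteins, had differences of 2.15 and 2.17 in tRNA-Glu and of 2.29 and 2.32 in tRNA-Arg. KIF2C, a mitotic kinesin, was nearest to CDC20, with differences of 2.25 and 2.09. The likeness rests on 3 group means of 6 arrays.

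The authors' deposited table gives 1 fold change per gene symbol and line, and its sign ran opposite to line minus control in the arrays, with r of -0.877 for tRNA-Glu and -0.882 for tRNA-Arg across 12070 probes. In the authors' deposited table CDC20 stands at -2.33 in tRNA-Glu and -2.19 in tRNA-Arg, and CCNB1 at -1.97 and -2.02 (headed logFC, with the base not stated). In that authors' deposited table UBE2C stands at -0.73 and -0.69 and CDC25C at -0.87 and -0.87. FZR1 has -0.15 and 0.01 in the authors' deposited table.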

How the data were processed

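The table deposited by the authors holds, per the file headers, a linear non-normalized intensity and a detection p-value per probe and array (47323 probes, 6 arrays). A processed intensity table and a table of log2-like fold changes per symbol were also deposited by the authors. The submitters' processing notes name lumi, without a version. Intensities were background-corrected and quantile-normalized with neqc of limma 3.58.1 (R 4.3.3, offset 16, background inferred from detection p-values) and taken to log2; normalized intensity is 2 to that power. Probes detected at p under 0.01 on 2 or more arrays were kept. All 18106 were fitted at once over 3 groups (lmFit, eBayes, 3 residual and 4.08 prior degrees of freedom). The p-values were adjusted by Benjamini-Hochberg over all of them, and the threshold was an adjusted p under 0.05. The scripts were tested on simulated data. Precision is limited by having 2 arrays a group.

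Gene names come from the platform annotation, in which 30113 probes had 1 gene, 8 several and 17202 none, checked against RefSeq names. The text names all 10 genes with every kept probe. It also names up to 4 genes per pathway list with the smallest unadjusted p in either line, list genes opposite to most called ones in both lines, and the 6 nearest profiles to CCNB1 and to CDC20. The highest-mean probe stands for a list gene. The members and lists were chosen with earlier results of these data known. CDC27, UBE2S, USP44 and MYBL2 had no kept probe, and UBE2D1, CCNK and PDS5A had no named probe. Alternatives covered scaling, background, filtering, probe summary, design, the authors' processed values and leaving out each array.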

Additional observations from a re-analysis of the deposited data

Results flagged for a closer look

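On 3 of the 15 probes the difference from control was not the same in both lines by the limma test of tRNA-Glu minus tRNA-Arg, in which 18.0% of all probes were called higher and 17.8% lower. CCNA2 differed by -0.40 on the log2 scale, lower on both tRNA-Glu arrays than on both tRNA-Arg arrays (limma adjusted p = 0.0218). CDC25B differed by 0.33, higher on both tRNA-Glu arrays (adjusted p = 0.0303). Both calls were lost when any 1 of the 4 arrays of the lines was left out. FZR1 probe ILMN_1753207 differed by 0.78, higher on both tRNA-Glu arrays (adjusted p = 0.00345), while the other FZR1 probe, close to background, differed by 0.06 (adjusted p = 0.838). Each group had 2 arrays, too few to look for a single array far from its group.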

How the results depend on the processing

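No direction of a called member probe was reversed under any alternative. Of 234 values per comparison, in which a gene's mean stands for each of its probes where probes were averaged, 229 kept their side of the threshold in tRNA-Glu against control and 5 passed it newly. Among the latter are the gene means of CDC25C (1.58) and FZR1 (0.39). In tRNA-Arg against control 229 kept it and 5 lost it, and between the lines 222 kept it, 9 lost it and 3 passed it newly. The count of called member probes against control stayed between 13 and 14 in tRNA-Glu and between 11 and 13 in tRNA-Arg when single arrays were left out. Between the lines it was 3, rose to 5 with median scaling (CDC20 at 0.30 and the brighter UBE2C probe at 0.27 were then called), and was 1 to 3 when single arrays were left out. Leaving out single arrays gave 7612 to 9447 called probes of all tested in tRNA-Glu (9727 with all arrays), 4746 to 6936 in tRNA-Arg (7178 with all arrays; 4746 without tRNA-Arg replicate 1) and 3174 to 6188 between the lines (6483 with all arrays). The lowest of the last came without tRNA-Glu replicate 2. With single arrays left out, called probes of all pathway lists together ranged from 91 to 105 in tRNA-Glu, from 65 to 82 in tRNA-Arg and from 43 to 76 between the lines. With 1 probe per gene, 6474 were called in tRNA-Glu, where fewer probes were tested (10877). The cause of the other changes was not tested. Where an arm had 1 array left, that array was assumed to vary like the other groups. Dim probes such as those of FZR1 and CDC25C are limited by background.

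Deviations of same-numbered arrays correlated at 0.03, -0.02 and -0.01 between groups, so no shift shared by replicate number was seen. Each group has only 2 numbers, so these values cannot decide whether arrays were paired. With the replicate number as a block, 14, 13 and 3 member probes were called in tRNA-Glu, tRNA-Arg and between the lines, and 9494, 6855 and 6049 of all probes. The probe gained in tRNA-Glu was CDC25C probe ILMN_2294431 (0.62, adjusted p = 0.0259).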
